A study of Mus musculus with 9 samples.

Results

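The 10 genes described here encode the classical MHC class I molecules of the mouse and the machinery that loads them with peptide. They were chosen by name (H2-K1, H2-D1, B2m, Tap1, Tap2, Tapbp, Psmb8, Psmb9, Psmb10 and Nlrc5), and all 10 were found by symbol among the 52550 genes of the count table and were among the 18699 with enough counts to be tested. RNA was sequenced from the spinal cord of 9 adult female C57BL/6N mice on day 7, with 3 mice in each of 3 groups. Sham mice had a laminectomy without contusion. SCI mice had a contusion of the thoracic cord followed by the vehicle DMSO by intraperitoneal injection, and SCI+FIPI mice had the same contusion followed by daily intraperitoneal FIPI, an inhibitor of phospholipase D (PLD). The Sham mice were not described as receiving DMSO, so that the comparison of SCI with Sham joins the contusion and the vehicle. Total counts were 20806000 to 24016169 in Sham, 23981165 to 24582377 in SCI and 22364964 to 23703938 in SCI+FIPI, and neuron and oligodendrocyte markers were present in all 9 libraries, as the labelled tissue requires.

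Class I molecules display peptides from the inside of a cell to cytotoxic T cells and natural killer cells. Proteasomes cut proteins into peptides, the TAP transporter carries these into the endoplasmic reticulum, and a loading complex fits them to a heavy chain paired with beta-2-microglobulin. Interferons induce most of the genes of this route, while the healthy central nervous system is known for low class I levels. The heavy chains here are H2-K1 and H2-D1, and B2m encodes their shared light chain. Tap1 and Tap2 encode the partners that form the transporter, and Tapbp encodes tapasin, which bridges the transporter and the heavy chain. Psmb8, Psmb9 and Psmb10 encode the catalytic subunits of the immunoproteasome, which replace those encoded by Psmb5, Psmb6 and Psmb7. Nlrc5 encodes the transcriptional activator of the class I genes.

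In the genome build GRCm38, 7 of the 10 genes lie on chromosome 17, within the MHC region. Psmb9 (17:34181987-34187764), Tap1 (17:34187553-34197225), Psmb8 (17:34197721-34201454) and Tap2 (17:34203527-34216321) are neighbours. Tapbp (17:33915899-33929292) and H2-K1 (17:33996017-34000347) lie on one side of them, and H2-D1 (17:35262730-35267499) on the other. B2m is on chromosome 2 (2:122147686-122153083), and Psmb10 (8:105935735-105938444) and Nlrc5 (8:94434356-94527272) are on chromosome 8. Psmb9 and Tap1 are read in opposite directions from adjoining start sites, and 212 exonic bases belong to both. Counts of overlapping genes are uncertain, since the strand setting of the counting is not given in the sources used here.

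The sequences before the start sites are given as a description, and their part in the levels given further on was not tested. They come from RefSeq (GRCm38.p6), which gave an entry for 8 of the 10 genes, while Tap2 and Nlrc5 had none. The sequences of Tapbp, Psmb8 and Psmb10 were searched as well but are not printed. Each is the 250 bases before the start site, 5′ to 3′ on the strand of the gene, except that for Tap1 and Psmb9 the 225 bases between their start sites are printed once, on the strand of Tap1. The RefSeq start sites differ for some genes from the gene positions given above. By those positions the stretches of H2-D1, Tapbp and Psmb8 lie inside their own genes. The stretch shared by Tap1 and Psmb9 lies inside Psmb9, and that of Psmb10 lies partly inside Psmb10. Motif distances below are counted from the RefSeq start sites. Capitals mark matches to the motifs searched on both strands.
H2-K1 (17:34000348-34000597, minus strand): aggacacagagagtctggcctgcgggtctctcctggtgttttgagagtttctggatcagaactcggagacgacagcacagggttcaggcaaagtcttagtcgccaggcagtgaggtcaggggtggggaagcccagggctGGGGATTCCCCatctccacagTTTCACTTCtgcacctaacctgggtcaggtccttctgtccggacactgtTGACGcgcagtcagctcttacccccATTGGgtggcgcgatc
H2-D1 (17:35262844-35263093, plus strand): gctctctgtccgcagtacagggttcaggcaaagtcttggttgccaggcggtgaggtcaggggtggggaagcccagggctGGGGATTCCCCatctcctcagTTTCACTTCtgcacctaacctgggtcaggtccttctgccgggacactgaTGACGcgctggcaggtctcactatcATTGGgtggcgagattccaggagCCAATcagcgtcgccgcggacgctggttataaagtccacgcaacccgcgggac
B2m (2:122147437-122147686, plus strand): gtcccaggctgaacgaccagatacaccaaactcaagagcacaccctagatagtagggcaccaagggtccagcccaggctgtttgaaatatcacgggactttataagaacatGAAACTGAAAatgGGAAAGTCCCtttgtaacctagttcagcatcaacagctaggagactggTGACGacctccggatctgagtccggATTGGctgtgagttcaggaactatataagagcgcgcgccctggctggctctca
Tap1 and Psmb9 (17:34187331-34187555, plus strand): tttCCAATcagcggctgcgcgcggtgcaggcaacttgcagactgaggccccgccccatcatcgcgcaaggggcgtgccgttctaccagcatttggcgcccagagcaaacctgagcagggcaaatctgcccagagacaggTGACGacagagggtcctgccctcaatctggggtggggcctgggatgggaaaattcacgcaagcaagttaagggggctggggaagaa

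The motifs were the interferon-stimulated response element (a pair of GAAA repeats with 2 free bases between them), the class I form of it GAANTGAAA, the interferon-gamma activated site TTCNNNGAA, the NF-κB consensus, the cAMP-response half-site TGACG and the CCAAT box. The interferon-stimulated response element was found in 2.97% of all 32817 promoter sequences of this length and, among the 8 entries, in that of B2m (139 bases before the start). The form GAANTGAAA was found in 1.5% of all and in H2-K1 (90 bases before the start) and H2-D1 (150 bases before the start). NF-κB matches were present in 7.25% of all promoters and in 3 of the 8, namely H2-K1, H2-D1 and B2m; in H2-K1 and H2-D1 the match started 21 bases before the interferon element in both. TTCNNNGAA was found in 7.01% of all and only in Psmb8 among the 8. TGACG was in 17.7% of all and 5 of the 8, and CCAAT in 33.8% of all and 6 of the 8. In both counts the matches of Tap1 and Psmb9 are 1 site in the stretch they share. A TGACG followed 25 bases on by ATTGG, the reverse complement of CCAAT, was in H2-K1, H2-D1 and B2m and in 30 of the 32817 promoters (0.0914%); this spacing was chosen after the matches were seen. The best local alignment of the H2-K1 and H2-D1 sequences held 161 identical bases in 177 columns (91%). Psmb10 held no match to any of the motifs and Tapbp held only CCAAT, in stretches that lie partly or wholly inside the gene by the positions above. All matches are descriptions of sequence, and no binding was measured in these samples.

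Levels can be compared between genes only per length, and FPKM was used for this (the count scaled by the library total and by the exonic length of the gene). In SCI, B2m was the highest at 623 ± 53.2 FPKM (SD, n = 3), then H2-D1 at 255 ± 11.2, H2-K1 at 115 ± 11.1, Tapbp at 45.1 ± 2.03 and Psmb10 at 22 ± 0.235. Tap1 at 6.38 ± 1.05 and Tap2 at 5.82 ± 0.539 had overlapping ranges in SCI, as had Psmb8 at 3.73 ± 0.709 and Psmb9 at 3.29 ± 0.287, and Nlrc5 was the lowest at 1.96 ± 0.339. Thus the light and heavy chains stood well above the transporter, the inducible proteasome subunits and the activator. The exonic length joins all annotated exons, and for Psmb8 it was 3381 bases, beside 1907 in its longest transcript. The order among Tap1, Tap2, Psmb8 and Psmb9 may therefore depend on the length used. In Sham the upper end of the order was the same, with B2m at 234 ± 67.2 FPKM, H2-D1 at 75.2 ± 21.4 and H2-K1 at 33.2 ± 9.72. Psmb10 at 15.8 ± 1.32 FPKM and Tapbp at 14.5 ± 1.64 overlapped in Sham. Psmb9 at 0.996 ± 0.284, Psmb8 at 0.923 ± 0.396 and Nlrc5 at 0.855 ± 0.260 could not be ranked there, since their ranges overlapped.

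After injury all 10 genes were higher than in Sham, and all 10 passed both limits used to call a change, which were 0.5 for the size of the log2 fold change and 0.05 for the adjusted p-value (edgeR quasi-likelihood test, Benjamini-Hochberg). Of all 18699 genes tested, 24.4% were called higher in this comparison, 22.5% lower and 47% in either direction, so that injury moved much of the transcriptome. Every SCI mouse was above every Sham mouse for all 10 genes, as for 35.6% of all genes tested. The median log2 fold change was 1.70 over the 10 genes and -0.003 over all genes tested. The 10 genes together took 0.0576, 0.0774 and 0.0471% of the counts in Sham mice 1, 2 and 3, and 0.170, 0.192 and 0.188% in SCI mice 1, 2 and 3. In bulk tissue, more cells of a type and more RNA per cell cannot be told apart.

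**Figure D1:**
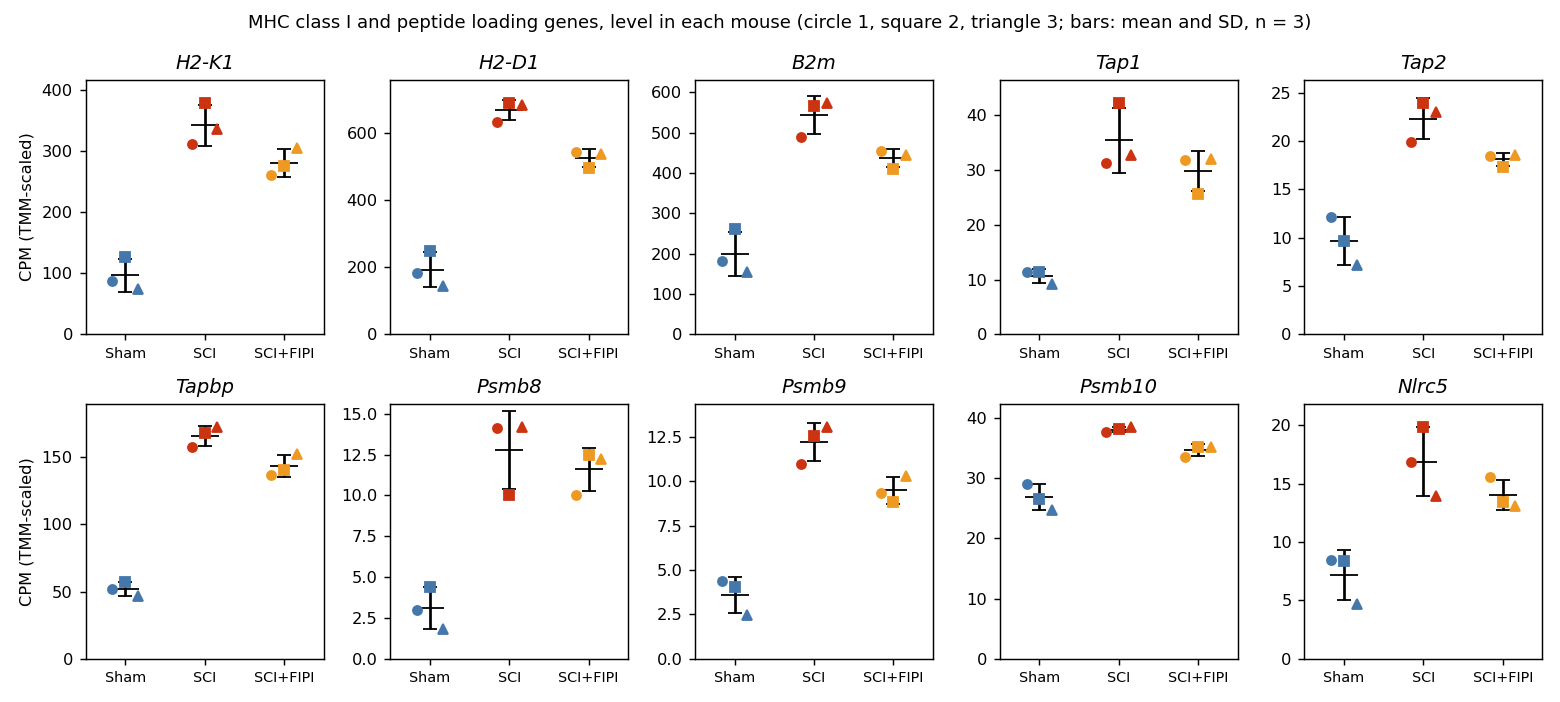
Level of each of the 10 genes in each mouse, in CPM (the count scaled by the library total and TMM factor, linear axis from 0), with the group on the x axis; circles, squares and triangles are mice 1, 2 and 3 of a group, and bars are the mean and SD of 3 mice. For every gene the 3 Sham mice lie below the 3 SCI and the 3 SCI+FIPI mice.

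Both heavy chains rose. H2-K1 stood at 88.3, 127 and 75.0 CPM in Sham mice 1 to 3 and at 311, 379 and 336 CPM in SCI. The SCI mice were all far above the highest Sham mouse, and the log2 fold change was 1.82 (SE 0.188, adjusted p = 5.03e-05, edgeR). H2-D1 stood at 183, 248 and 145 CPM in Sham and at 632, 688 and 681 CPM in SCI. The groups did not overlap, and the log2 fold change was 1.80 (SE 0.169, adjusted p = 1.38e-05). For the light chain B2m, the values were 182, 261 and 156 CPM in Sham and 488, 566 and 574 CPM in SCI. B2m thus rose with its partners, with a log2 fold change of 1.44 (SE 0.174, adjusted p = 9.49e-05).

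The heavy chains and B2m also varied together from mouse to mouse. Among the Sham mice, mouse 2 was the highest and mouse 3 the lowest for each of H2-K1, H2-D1 and B2m. Over the 9 mice, the deviations of log2 CPM from the group means had a Pearson r of 0.978 between H2-D1 and B2m, 0.921 between H2-K1 and B2m and 0.919 between H2-K1 and H2-D1. Other pairs of the 10 genes ranged from 0.053 between Tap1 and Psmb8 to 0.936 between Tap2 and Psmb9, and pairs over all genes were not compared. These are descriptions over mice that share a library for each pair of values. Sham mouse 3 was the lowest of its group for all 10 genes, and SCI mouse 1 was the lowest of its group for 8 of the 10. The log2 ratio of H2-K1 and H2-D1 counts together over B2m counts within a library was 0.574, 0.526 and 0.498 in Sham and 0.950, 0.915 and 0.826 in SCI. All 3 SCI mice lay above all 3 Sham mice; the difference of means was 0.36 (exact two-sided permutation test, p = 0.1, 0.15 after adjustment over the 6 ratio comparisons). With 3 mice against 3 this test cannot give a p below 0.1.

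Among the genes of peptide transport, tapasin had the smallest error. Tapbp was at 52.0, 57.4 and 47.0 CPM in Sham and at 157, 168 and 172 CPM in SCI. The spread within each group was small beside the gap between them, and the log2 fold change was 1.67 (SE 0.0751, adjusted p = 2.07e-10, edgeR). Of the exonic bases of Tapbp, 24.9% also belong to an antisense gene, Gm19412. Tap1 rose from 11.4, 11.3 and 9.19 CPM in Sham to 31.3, 42.2 and 32.7 CPM in SCI, a log2 fold change of 1.74 (SE 0.136, adjusted p = 1.43e-07). Its partner Tap2 rose from 12.1, 9.67 and 7.23 CPM to 19.9, 23.9 and 23 CPM, a log2 fold change of 1.21 (SE 0.146, adjusted p = 6.86e-06). Of the exonic bases of Tap2, 14.1% also belong to Gm15821 on the opposite strand. Both genes of the transporter rose without overlap between the groups, and whether Tap1 rose more than Tap2 was not tested.

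All 3 inducible proteasome subunits rose. Psmb8, which replaces Psmb5, was at 3.02, 4.41 and 1.84 CPM in Sham and at 14.1, 10 and 14.2 CPM in SCI. Its log2 fold change of 2.05 was the largest point estimate among the 10 genes, with the largest error (SE 0.258, adjusted p = 3.49e-05, edgeR), and it had only 44 to 102 counts per Sham mouse. Of its exonic bases, 14.7% also belong to the antisense gene Gm20496. Psmb9, which replaces Psmb6, went from 4.36, 4.02 and 2.47 CPM to 11, 12.6 and 13 CPM. The groups were far apart, with a log2 fold change of 1.76 (SE 0.172, adjusted p = 3.82e-07). Psmb10, which replaces Psmb7, went from 29.1, 26.5 and 24.8 CPM to 37.6, 38.1 and 38.4 CPM. This was the smallest point estimate of the 10 genes, a log2 fold change of 0.51 (SE 0.0719, adjusted p = 1.83e-05). It lies at the edge of the limit of 0.5, and was 0.44 with upper-quartile factors, 0.50 (just under the limit) without Sham mouse 2 and 0.45 without Sham mouse 3. In these 3 fits 9 of the 10 genes were called.

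The constitutive partners gave no call in the same comparison. The log2 fold changes were 0.03 for Psmb5 (SE 0.0843, adjusted p = 0.772), 0.43 for Psmb6 (SE 0.0563, adjusted p = 9.04e-06) and -0.19 for Psmb7 (SE 0.0627, adjusted p = 0.0145, all edgeR). Psmb6 and Psmb7 thus differed in opposite directions, both inside the fold limit. The mean log2 ratio of the 3 inducible subunits to their partners was -2.85, -2.74 and -3.38 in Sham and -1.62, -1.65 and -1.54 in SCI. The SCI mice were all above the Sham mice and closer to each other; the difference was 1.39 (exact permutation p = 0.1, adjusted 0.15). Taken from summed counts, in which Psmb10 weighs most, the difference was 0.73.

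Nlrc5, the activator, was at 8.43, 8.42 and 4.72 CPM in Sham and at 16.9, 19.8 and 13.9 CPM in SCI. The groups did not overlap, although the spread was wide in each of them, and the log2 fold change was 1.24 (SE 0.205, adjusted p = 0.000278, edgeR). Nlrc5 thus moved in the same direction as the other 9 genes.

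Some genes outside the 10 followed nearly the same course over the 9 mice. Among the 14543 genes whose log2 CPM averaged 1 or more, the Pearson correlation of log2 CPM with the mean standardized log2 CPM of the 10 genes was highest for Neat1 (r = 0.998), the noncoding RNA that builds nuclear paraspeckles. Next came Pygl, the liver form of glycogen phosphorylase (0.998), Socs3, a feedback inhibitor of cytokine signalling (0.997), Ccdc88b (0.997) and Tsku, a secreted proteoglycan (0.997). These values are descriptions, and the 3 groups of mice set most of the course that the genes share.

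**Figure D2:**
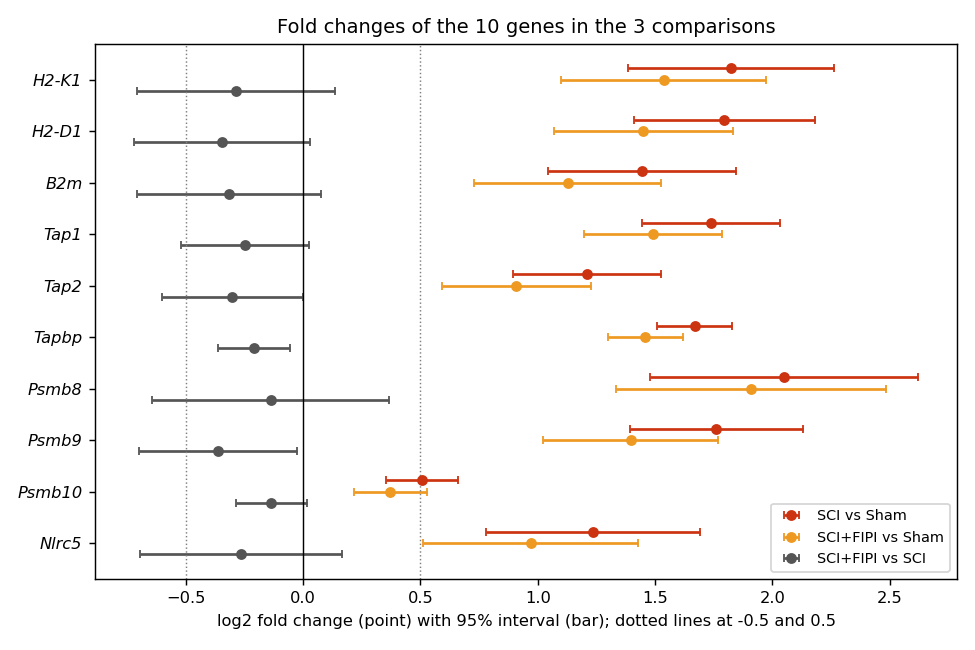
Log2 fold change of each of the 10 genes (x axis) with its 95% interval from the edgeR fit, for SCI vs Sham, SCI+FIPI vs SCI and SCI+FIPI vs Sham; dotted lines mark the limits of -0.5 and 0.5. Both comparisons with Sham lie to the right of 0 for all 10 genes, whereas the points of SCI+FIPI vs SCI lie between -0.36 and -0.14.

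After FIPI treatment all 10 genes had lower mean levels than in SCI, but none was called. With edgeR, 0 of the 10 passed both limits and 0 had an adjusted p-value under 0.05; 2 of the 10, Tapbp and Psmb9, had an unadjusted p under 0.05, and DESeq2 and limma-voom also called 0. Of all genes tested, 0.695% were called lower and 3.06% in either direction, and 3.58% were lower with an adjusted p-value under 0.05. The median log2 fold change was -0.28 over the 10 genes and -0.001 over all genes, of which 50.3% were lower in SCI+FIPI. In 7 of the 10 genes every SCI+FIPI mouse was below every SCI mouse, the exceptions being Tap1, Psmb8 and Nlrc5. Over all genes tested 14.5% had this order. The same 3 SCI mice enter the comparisons with Sham and with SCI+FIPI, so that the direction of one is not independent of the other.

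The heavy chains and the light chain were lower without overlap but did not pass the test. H2-D1 was at 543, 495 and 536 CPM in SCI+FIPI, all below the 632 CPM of the lowest SCI mouse. The difference was -21.3% with a 95% interval of -39.3% to 1.95% (log2 fold change -0.35, SE 0.163, adjusted p = 0.233, edgeR). H2-K1 was at 261, 275 and 305 CPM, below the SCI mice by a narrower gap. Its difference was -18.0% with an interval of -38.8% to 9.89% (adjusted p = 0.38). B2m was at 453, 411 and 445 CPM, and the difference was -19.6% with an interval of -38.8% to 5.49% (adjusted p = 0.299). All 3 intervals include no difference. The log2 ratio of heavy chains to B2m was 0.828, 0.908 and 0.920 in SCI+FIPI, within the range of the SCI mice; the difference was -0.01 (exact permutation p = 0.8), and its sign turned to 0.01 without SCI mouse 1 and to 0.02 without SCI+FIPI mouse 1.

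Of the loading genes, Tapbp had the lowest adjusted p and the estimate nearest to 0. It was at 137, 141 and 152 CPM in SCI+FIPI, below all SCI mice, a difference of -13.5% with an interval of -22.3% to -3.81% (log2 fold change -0.21, SE 0.0719, unadjusted p = 0.011, adjusted p = 0.0808, edgeR). Tap2 was at 18.5, 17.3 and 18.5 CPM, also below all SCI mice (log2 fold change -0.30, SE 0.139, adjusted p = 0.199). Tap1 was at 31.7, 25.7 and 32.0 CPM, and 2 of these mice lay within the SCI range (log2 fold change -0.25, SE 0.126, adjusted p = 0.245). The Tap1 value was -0.10 without SCI mouse 2 and -0.15 without SCI+FIPI mouse 2. With no filter on low counts, Tapbp and Tap2 had adjusted p-values of 0.0201 and 0.0441, and in a fit to only the SCI and SCI+FIPI mice H2-D1 and B2m had 0.0169 and 0.0322, in each case inside the fold limit.

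The proteasome subunits were also lower without a call. Psmb9 was at 9.34, 8.82 and 10.3 CPM in SCI+FIPI, below all SCI mice (log2 fold change -0.36, SE 0.157, unadjusted p = 0.0363, adjusted p = 0.164, edgeR). Psmb10 was at 33.5, 35.2 and 35.2 CPM, likewise without overlap (log2 fold change -0.14, SE 0.0709, adjusted p = 0.254). Psmb8 was at 10.1, 12.5 and 12.2 CPM, inside the range of SCI (log2 fold change -0.14, SE 0.228, adjusted p = 0.762). The Psmb8 value ranged from -0.29 without SCI mouse 2 to -0.05 without SCI+FIPI mouse 1, and was -0.06 without SCI mouse 1 or SCI mouse 3. The log2 ratio of inducible to constitutive subunits was -1.89, -1.83 and -1.76 in SCI+FIPI. It was below the SCI value in all 3 mice, with a difference of -0.22 (exact permutation p = 0.1, adjusted 0.15). Nlrc5 was at 15.6, 13.5 and 13.1 CPM, overlapping SCI (log2 fold change -0.26, SE 0.194, adjusted p = 0.443, edgeR). It was -0.13 without SCI mouse 2.

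The SCI+FIPI mice stayed far above Sham. The mean CPM of SCI+FIPI lay between those of Sham and SCI for all 10 genes, and all 10 were without overlap above Sham, as were 33.4% of all genes tested. By edgeR 9 of the 10 genes passed both limits against Sham, where 21.2% of all genes were called higher and 38.1% in either direction. The median over the 10 was 1.42 on the log2 scale. Psmb10 was the exception, with a log2 fold change of 0.37 (SE 0.0722, adjusted p = 0.000439). The 10 genes took 0.151, 0.144 and 0.157% of the counts of the SCI+FIPI mice, below every SCI mouse and above every Sham mouse.

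**Figure D3:**
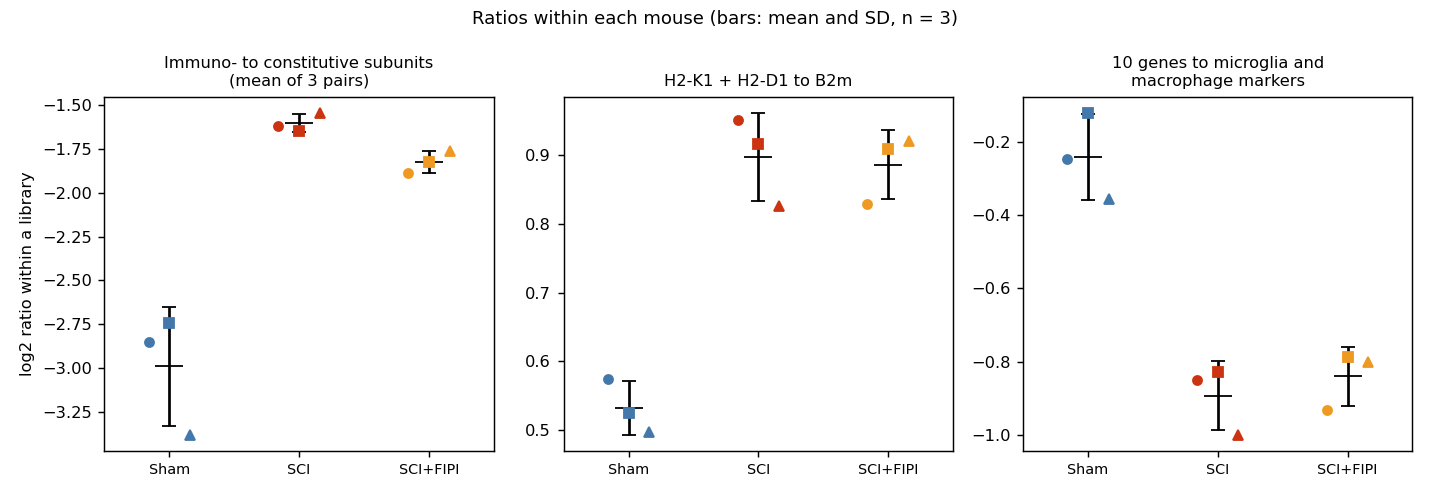
Log2 ratios within each mouse (y axis, not starting at 0), by group: inducible to constitutive proteasome subunits (mean of 3 pairs), H2-K1 and H2-D1 to B2m, and mean log2 CPM of the 10 genes minus that of 12 microglia and macrophage markers; bars are the mean and SD of 3 mice. In each panel the SCI mice are apart from the Sham mice, and in the first the SCI+FIPI mice are also below the SCI mice.

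The rest of the class I route was read from 6 further gene lists. Rose and fell here refer to genes past both limits by edgeR, and the values are log2 fold changes of SCI against Sham. Over all genes tested, 24.4% were called higher in that comparison and 22.5% lower. Of 9 other loading and trimming genes, 6 rose after injury and none fell. They were the chaperone Calr (log2 fold change 0.98), the oxidoreductase of the loading complex Pdia3 (1.01), the proteasome activator subunits Psme1 (1.11) and Psme2 (0.96), the trimming peptidase Erap1 (0.87) and the tapasin-related Tapbpl (0.57). Canx, Lnpep and Psme3 were not called, at 0.11, 0.28 and -0.16. Of the 14 genes of the constitutive proteasome core none was called, and a difference from the loading genes was not tested. Their median was 0.10 on the log2 scale and their range -0.19 to 0.43; at an adjusted p-value under 0.05 with no fold limit, 6 were higher and 2 lower (edgeR).

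Among 18 other class I heavy chain genes, 15 were tested, 8 rose and 1 fell, beside 24.4% called higher and 22.5% called lower over all genes tested. Those that rose included H2-T23, the mouse Qa-1 chain (log2 fold change 1.53), Mr1, which presents microbial metabolites (1.70), Hfe, which takes part in iron regulation (1.57), Fcgrt, the neonatal Fc receptor (1.42), and H2-M3, which presents formylated peptides (1.31). H2-Q4 (1.12) and H2-T22 (0.84) also rose, as did H2-T24 (0.59), whose groups overlapped (up to 10.7 CPM in Sham, from 10.4 CPM in SCI). H2-Q2 fell by 0.79 on the log2 scale, with only 27 to 38 counts per Sham library and 14 to 23 per SCI library. Several of these share sequence: 58.5% of the 50-base stretches of the longest H2-T22 transcript and 36.9% of those of H2-Q4 occur in another gene, against 8.11% for H2-K1 and 14.3% for H2-D1, so that their counts are uncertain.

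The interferon ligands on the list, Ifng and Ifnb1, were at or near the floor, and other interferon ligands were not read. Ifng, which encodes interferon gamma, had 0 counts in all 9 libraries, which allows a level of up to 0.124 to 0.144 CPM per library (3 counts, counting error only). Ifnb1 had 1 count in 1 library, SCI+FIPI mouse 2. Of the 7 receptor and kinase genes, 5 rose, where 24.4% of all genes tested were called higher. They were Ifngr1 (log2 fold change 1.42), Ifngr2 (0.90), Ifnar1 (0.98), Ifnar2 (1.54) and the kinase Tyk2 (0.87). Jak1 and Jak2 were at -0.01 and 0.09 and were not called. Of 14 transcriptional regulators, 7 rose and 1 fell, where 47% of all genes tested were called in either direction. Irf8 (2.59), Irf1 (1.40), Irf9 (0.66), the feedback inhibitor Socs1 (1.15), the NF-κB subunits Nfkb1 (0.98) and Rela (0.95), and Ciita, the class II counterpart of Nlrc5 (0.62), rose. Rfxap, a subunit of the RFX complex that binds class I and class II promoters, fell by 0.56 on the log2 scale.

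Receptors for class I molecules were mostly at low counts. Of 7, 5 were tested and 2 rose after injury, where 47% of all genes tested were called in either direction. Pirb, an inhibitory receptor of myeloid cells, rose from 3.99 ± 1.65 to 39.4 ± 6.73 CPM (SD, n = 3; log2 fold change 3.30). Klrd1, which encodes the CD94 chain of natural killer cells, rose with only 2 to 9 counts in Sham and 14 to 33 in SCI (1.82). Cd8a had 3 to 24 counts per Sham library and 7 to 17 per SCI library.

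**Figure D4:**
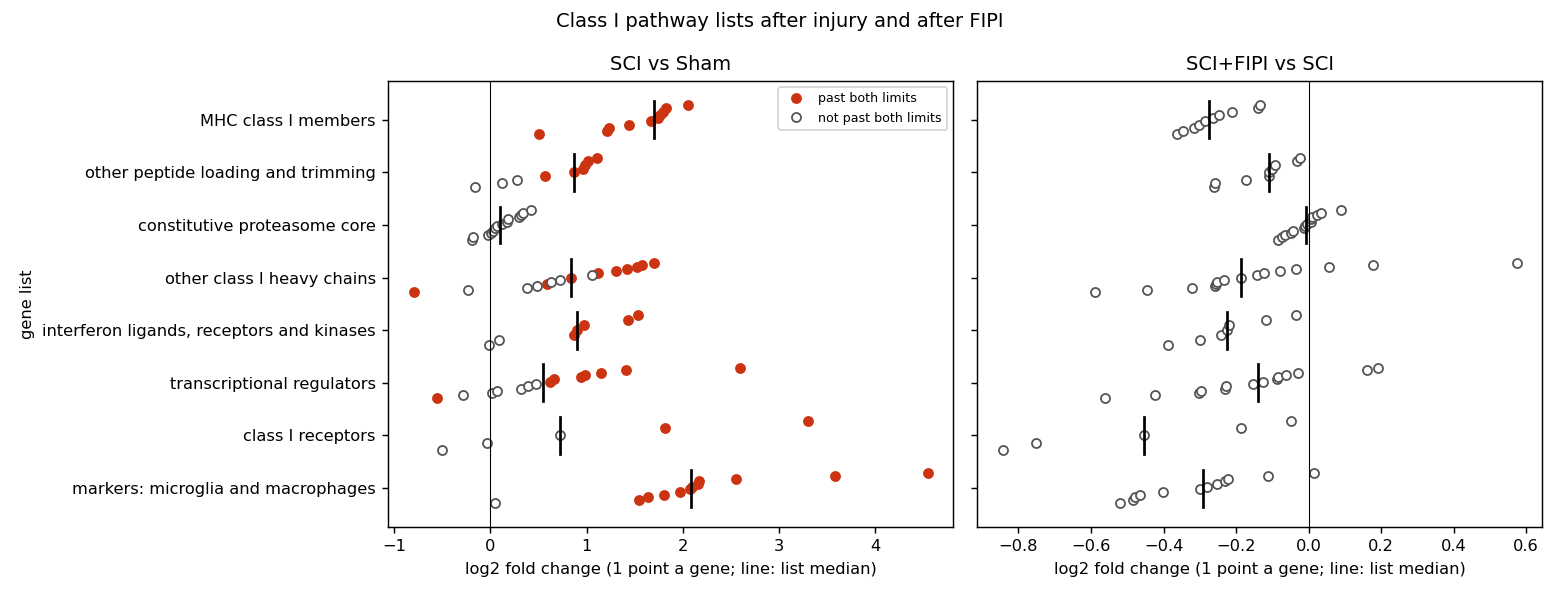
Log2 fold change of each gene (1 point a gene, x axis) in the class I lists and in the microglia and macrophage markers (rows), for SCI vs Sham on the left and SCI+FIPI vs SCI on the right; filled points passed both limits and the line is the list's median. The filled points are all on the left, where the medians run from 0.10 for the constitutive proteasome core to 2.08 for the markers.

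In SCI+FIPI vs SCI, no gene of these 6 lists was called by edgeR. Over all genes tested, 0.695% were called lower and 3.06% in either direction, and 3.58% were lower with an adjusted p-value under 0.05. Below an adjusted p of 0.05 but inside the fold limit were Calr and Pdia3 (both -0.26), H2-T23 (-0.32), Ifngr1 (-0.30), Ifngr2 (-0.39), Irf2 (-0.30) and Nfkb1 (-0.30), all of them lower. All 9 other loading genes, all 7 tested interferon genes and 12 of the 14 regulators had lower point estimates, while the constitutive proteasome core had a median of -0.01. Ciita was at 2.41 to 2.60 CPM in SCI+FIPI and at 2.81 to 4.26 CPM in SCI; its log2 fold change of -0.56 passed the fold limit but not the test (SE 0.199, adjusted p = 0.0902).

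Markers of microglia and macrophages moved in the same direction as the 10 genes. Of 12 microglia and macrophage markers, 11 rose after injury, beside 24.4% called higher over all genes tested. The exception was P2ry12 (log2 fold change 0.04), and the 12 markers had a median of 2.08. Their summed level was 445 to 582 CPM in Sham, 2358 to 2832 in SCI and 1868 to 2194 in SCI+FIPI, without overlap between any of the groups. In SCI+FIPI vs SCI, 0 of the 12 were called by edgeR, beside 3.06% of all genes tested. Of these markers 11 had lower point estimates, and the median of the 12 was -0.29, beside -0.28 for the 10 class I genes. The mean log2 CPM of the 10 genes minus that of the markers was -0.248, -0.121 and -0.356 in Sham and -0.850, -0.827 and -0.998 in SCI. The difference was -0.65 (exact permutation p = 0.1, adjusted 0.15), so that the 10 genes were lower after injury relative to the mean of the 12 markers. Single markers differed widely, up to a log2 fold change of 4.55 for Cd68. Csf1r (1.55), Cx3cr1 (1.64) and P2ry12 lay below the median of 1.70 of the 10 genes, and the other markers above it. In SCI+FIPI the mean of the 10 genes minus that of the markers was -0.932, -0.786 and -0.800, so that mouse 1 lay inside the range of SCI and the others just above it. The difference from SCI was 0.05 (exact permutation p = 0.5, adjusted 0.6), and it was -0.000668 without SCI mouse 3. The part of these cells in the class I levels was not tested.

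The other marker lists were read in the same way. Over all genes tested, 24.4% were called higher after injury and 22.5% lower. In SCI+FIPI vs SCI, 3.06% were called in either direction. Fibroblast markers (6 of 6 called higher after injury) summed to 350.4 to 939 CPM in Sham, 8816 to 11862 in SCI and 8146 to 10474 in SCI+FIPI. Of 6 endothelial markers, 4 were called higher after injury. They summed to 263 to 288 CPM in Sham, 445 to 480.2 in SCI and 351 to 431 in SCI+FIPI, without overlap between the groups. In SCI+FIPI vs SCI all 6 had lower point estimates and none was called, and Cldn5 had an adjusted p of 0.0137 inside the fold limit (log2 fold change -0.42, edgeR). Astrocyte markers, 3 of 6 called higher and 1 lower after injury, summed to 7828 to 8221 CPM in Sham, 11892 to 13693 in SCI and 12151 to 12673 in SCI+FIPI. Oligodendrocyte markers, 3 of 6 called lower, summed to 32397 to 33982 CPM in Sham, 22750 to 25395 in SCI and 23342 to 27599 in SCI+FIPI. These glial sums were apart from Sham in both injured groups and overlapped between SCI and SCI+FIPI. Neuron markers, all 8 called lower after injury, summed to 7235 to 8281 CPM in Sham, 2287 to 3290 in SCI and 3804 to 4501 in SCI+FIPI. In SCI+FIPI vs SCI, 5 of the 8 neuron markers were called higher. T and NK cell markers summed to 3.38 to 7.52 CPM in Sham, 4.57 to 6.04 in SCI and 4.2 to 4.99 in SCI+FIPI; 3 of the 8 were tested and 0 were called by edgeR, and Ncr1 was at 0 counts in SCI mouse 2 and SCI+FIPI mouse 2. Neutrophil markers summed to 34.9 to 102 CPM in Sham, 50.1 to 62.8 in SCI and 21.1 to 128 in SCI+FIPI, with 0 of 6 called after injury. The part of these cells was not tested either.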

How the data were processed

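RNA of 9 spinal cords (3 per group) was enriched for poly(A) RNA and sequenced. The authors removed low-quality and adapter sequence and deposited raw counts of 52550 genes per mouse, without normalization. The submitters' processing notes name GRCm38 and R 4.2.3; the aligner, counter and strand setting are not given in the sources used here. Gene symbols, positions and exonic lengths came from GENCODE M21 (52403 genes matched).

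The analysis used edgeR 4.0.16 (R 4.3.3): TMM factors, filterByExpr by group (18699 genes kept), and a robust quasi-likelihood fit of one mean per group to all 9 mice, with Benjamini-Hochberg adjustment over all genes tested. The fold limit of 0.5 and the p limit of 0.05 come from the study's methods. CPM was scaled by TMM, with a prior count of 2 on the log2 scale. Ratios within a library were compared by exact permutation tests. DESeq2 1.42.0 and limma 3.58.1 (voom) were alternatives, beside other factors, filters, limits, a replicate block and each mouse left out in turn. Promoters were searched in Python 3.11.15, and figures were drawn with matplotlib 3.10.9.

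The genes named are the 10, those of the fixed lists that passed both limits, the partners Psmb5, Psmb6 and Psmb7, interferon ligands, Ciita, and the 5 genes most alike in course; further genes of the lists were named after their values were seen, to complete a count. The 10 genes and the lists were chosen with earlier results of these data known. On simulated counts with 200 genes changed by a log2 fold of 1, the steps recovered 191 for SCI vs Sham with 12 false calls and 186 for SCI+FIPI vs SCI with 10 false calls, of 18699 genes. The changed genes were drawn only from those with higher mean counts, and changes under a log2 fold of 1 were not simulated. The recovery of changes as small as those of the 10 genes in SCI+FIPI vs SCI is therefore not known. No 2 libraries of a group agreed within sampling noise (chi-square per gene 6.79 to 13.3). Totals of 20806000 or more leave genes such as Psmb8, with 44 counts in 1 Sham mouse, measured with low precision. The p-values measure the spread between mice. Behaviour, staining, PCR and protein array data were not analysed here.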

Additional observations from a re-analysis of the deposited data

How the results depend on the processing

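Of 140 alternative values of the 10 genes per comparison, 137 kept their direction and call for SCI vs Sham and 3 fell below the fold limit, all for Psmb10; for SCI+FIPI vs SCI and SCI+FIPI vs Sham all 140 kept both, although single mice moved the SCI+FIPI vs SCI estimates of Tap1, Psmb8 and Nlrc5 by over 1.5 times. The number of the 10 genes called was 9 to 10 for SCI vs Sham, 0 under all 16 alternatives for SCI+FIPI vs SCI, and 7 (limit of 1) to 10 (no limit) for SCI+FIPI vs Sham. Over all genes, a fold limit of 1 called 5059 in SCI vs Sham (8780 at 0.5), 65 in SCI+FIPI vs SCI (572) and 3376 in SCI+FIPI vs Sham (7128), and with no fold limit 12315, 1800 and 11060 were called. With each mouse left out in turn these counts were 8373 to 8850, 189 to 1038 and 6675 to 7128. For SCI+FIPI vs SCI the count was 189 without SCI+FIPI mouse 2, 240 and 341 without SCI mice 3 and 2, and 1038 without SCI mouse 1; the cause was not tested. Left-out mice gave a difference in the heavy chain to B2m ratio of 0.34 to 0.40 for SCI vs Sham and -0.0471 to 0.0171 for SCI+FIPI vs SCI, reversed at 0.0149 without SCI mouse 1 and 0.0171 without SCI+FIPI mouse 1. The difference of the 10 genes from the microglia and macrophage markers ranged from -0.71 to -0.59 and from -0.000668, reversed without SCI mouse 3, to 0.0987; that of the inducible to constitutive subunits ranged from 1.19 to 1.51 and from -0.25 to -0.19.

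Replicate numbers gave no clear pairing of the mice. Deviations of same-numbered mice correlated at -0.0726 to 0.108 and those of differently numbered mice at -0.108 to 0.0889. Not every mouse correlated best with its own number. The replicate block gave 8744, 555 and 7115 genes called in the 3 comparisons, 10, 0 and 9 of the 10 genes, and changed no call of the 10. Depth limits the genes with few counts, among them Psmb8, Psmb9, Klrd1 and the interferon ligands Ifng and Ifnb1.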
